A study of Mus musculus with 13 samples.

Results

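The MHC class II genes described here are 7 of the 26264 gene symbols measured in mouse right ventricle: H2-Aa, H2-Ab1, H2-Eb1, H2-DMa, H2-DMb1, Cd74 and Ciita. They were taken by symbol, with no use of their measured values, and all 7 had reads in every library and passed the filter on low counts. The study asks what a knock-in mutation of Dsg2, the desmosomal cadherin desmoglein-2, does in a mouse model of arrhythmogenic cardiomyopathy, and what part PPAR-γ plays there. The tested libraries are 7 labelled Dsg2 F536C knock-in and the controls are 6 labelled wild type, each from polyadenylated RNA of the right ventricle. The labels give no strain, age, sex, zygosity or drug for any library. They do not say that replicates came from separate animals, so the p-values measure the spread between these libraries, which may be in part technical.

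MHC class II molecules display peptides from endocytosed proteins to CD4+ T cells. Dendritic cells, B cells and a portion of macrophages carry them at rest, and in the heart these are resident or recruited leukocytes. An α chain and a β chain pair in the endoplasmic reticulum with the invariant chain, which Cd74 encodes. The invariant chain is then degraded in endosomes, and its last fragment is exchanged for a peptide with the help of the editor H2-M. Ciita, the class II transactivator, binds no DNA itself and acts through the factors that sit on a shared set of promoter boxes, among them an X box and a Y box.

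Promoters of 4 of the 7 genes (H2-Aa, H2-Eb1, H2-DMa and H2-DMb1) were found in the RefSeq table of build GRCm38.p6, as windows of 300 bases from 250 before to 50 after the annotated start. Both strands were searched for GNAAC, letters from the core of the X box, followed after 25 to 30 bases by ATTGG, the Y box core and an inverted CCAAT. This spacing was chosen after these promoters had been read, and the letters of the pair do not overlap. The pair lay on the gene's own strand in the windows of H2-Aa, H2-Eb1 and H2-DMb1. It was not in the H2-DMa windows, which covered chr17:34122582-34122881 and chr17:34125268-34125567 of a gene that runs to 34139101. Any start of H2-DMa elsewhere was not searched, so the gene is not shown to lack the pair. The pair was on the gene's strand in 0.493% of all 32851 promoter windows and on either strand in 1.04%. ATTGG alone was in 37.4% of windows and GNAAC alone in 84.8%, on either strand. The stretches of 150 bases before the starts of H2-Aa and H2-Eb1 are shown because both genes encode chains of surface class II molecules and carry the pair at nearly the same place. Capitals mark GNAAC first and ATTGG second, and both run 5′ to 3′ on the gene's strand.
H2-Aa (chr17:34287824-34287973, minus strand, GRCm38.p6): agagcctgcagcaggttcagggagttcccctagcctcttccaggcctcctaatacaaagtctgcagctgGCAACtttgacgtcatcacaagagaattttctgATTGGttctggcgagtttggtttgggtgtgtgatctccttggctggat
H2-Eb1 (chr17:34305717-34305866, plus strand, GRCm38.p6): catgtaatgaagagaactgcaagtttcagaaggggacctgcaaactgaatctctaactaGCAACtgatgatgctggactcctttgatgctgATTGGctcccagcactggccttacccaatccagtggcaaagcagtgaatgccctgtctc
In H2-Aa the 2 elements began 81 and 48 bases before the start, with 28 bases between them. In H2-Eb1 they began 91 and 59 bases before it, with 27 bases between them. The H2-DMb1 pair began 94 and 61 bases before the start with 28 bases between. Among class II genes outside the 7, the windows of H2-Oa, H2-Ob and H2-Eb2 held the pair with 28, 25 and 27 bases between, and that of H2-DMb2 did not. A match of letters describes the window and is not evidence that a factor binds there.

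Libraries held between 14498336 and 29848597 estimated reads. Knock-in 4, 5 and 6 stand apart from the other 10 libraries: 10.2% to 10.7% of their gene values were not whole numbers, against 3.07% to 3.79% in the rest. Their summed epithelial markers (Krt8, Krt18, Krt19, Epcam, Cdh1 and Krt7) reached 2360 to 3630 CPM (read counts scaled to a common library size), against at most 35.1 CPM in every other library. Each result below is therefore given for all 13 libraries and for the 10 without those 3. Dsg2 itself was lower in the knock-in libraries, with a log2 fold change of -1.08 in 13 libraries and -0.97 in 10. The 8 cardiomyocyte markers, which define the labelled tissue, were abundant in every library, with sums of 19900 to 38800 CPM in knock-in and 45700 to 66200 CPM in wild type.

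Of the 7 class II genes, 6 were higher in the knock-in right ventricles and none was lower, both in 13 and in 10 libraries, at an adjusted p under 0.05 in edgeR's quasi-likelihood test. H2-Aa was the member that did not pass. Across all genes tested, 23.6% were called higher and 21% lower in 13 libraries, and 22.3% higher and 21.3% lower in 10, so large numbers of genes moved in this comparison. The median log2 fold change of the 7 was 0.95 in 13 libraries, beside 0.08 over all tested genes, and 0.74 in 10 libraries, beside 0.02. In bulk tissue, more cells that carry class II and more class II RNA per cell cannot be told apart.

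**Figure D1:**
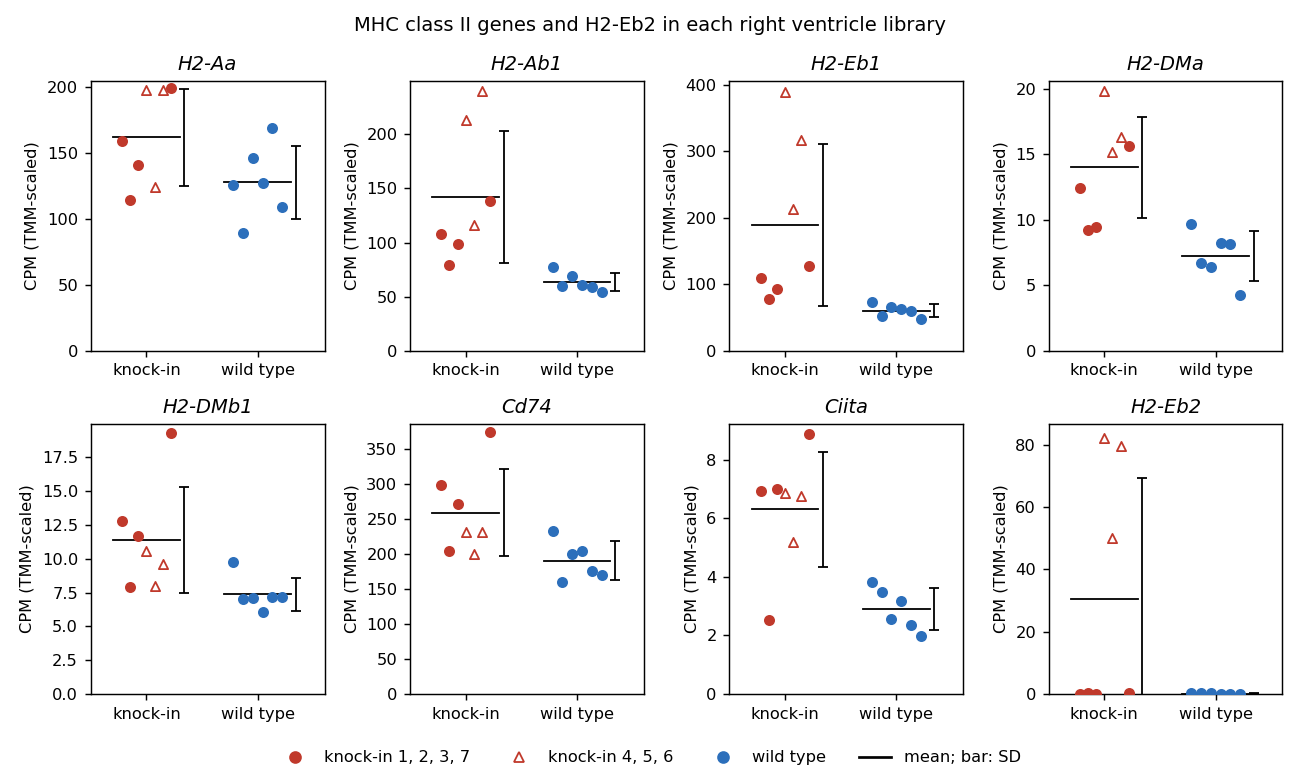
Level of each class II gene, and of H2-Eb2, in CPM after TMM scaling (linear axis from 0) in 7 knock-in libraries (left) and 6 wild-type libraries (right). Each point is a library, open triangles are knock-in 4, 5 and 6, and lines and bars are the group mean and SD; H2-Ab1 and H2-Eb1 do not overlap between the groups, and H2-Eb2 is high only in the 3 triangles.

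The α chain gene H2-Aa pairs with H2-Ab1 to form the molecule I-A. H2-Aa had 159, 114, 141 and 199 CPM in knock-in 1, 2, 3 and 7 and 198, 124 and 198 CPM in knock-in 4, 5 and 6, against a lowest value of 89.1, a median of 127 and a highest of 169 CPM in wild type. Knock-in 1, 2, 3 and 5 lay within the wild-type range. On the log2 scale the fold change was 0.34 with an SE of 0.17 (adjusted p = 0.118) in 13 libraries and 0.26 ± 0.17 (adjusted p = 0.235) in 10. H2-Aa is the member whose call turned on how libraries were scaled. When library totals replaced TMM, its log2 fold change was 0.60 (adjusted p = 0.00872) in 13 libraries and 0.53 (adjusted p = 0.0201) in 10, and that scaling moved the median of all genes to 0.33 and 0.26. It also turned the split of calls from 3442 higher and 3060 lower to 6110 higher and 1661 lower in 13 libraries, and from 3241 and 3099 to 6049 and 1528 in 10. Relative to the median of all genes, H2-Aa was at 0.26 with TMM and 0.27 with library totals in 13 libraries, and 0.24 and 0.27 in 10.

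The β chain gene H2-Ab1 had 108, 79.1, 98.6 and 138 CPM in knock-in 1, 2, 3 and 7 and 213, 116 and 240 CPM in knock-in 4, 5 and 6, against 54.2 to 77.7 CPM with a median of 60.1 in wild type. Every knock-in library lay above every wild-type library, the closest being knock-in 2 and wild type 1. Its log2 fold change, with SE, was 1.16 ± 0.24 (adjusted p = 0.00166) in 13 libraries and 0.74 ± 0.14 (adjusted p = 0.000788) in 10. A gap of this kind was seen for 8.6% of all tested genes in 13 libraries and 14.8% in 10.

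H2-Eb1 encodes the β chain of I-E, the other class II molecule of the mouse. It had 110, 78.3, 92.2 and 127 CPM in knock-in 1, 2, 3 and 7 and 389, 214 and 318 CPM in knock-in 4, 5 and 6, against 47.2 to 74.0 CPM with a median of 60.9 in wild type. Again no knock-in library reached down into the wild-type range, and knock-in 4, 5 and 6 were all above the other 4. The log2 fold change was 1.65 ± 0.36 (adjusted p = 0.00297) in 13 libraries and 0.76 ± 0.14 (adjusted p = 0.000791) in 10, so the size of the rise rests in good part on those 3 libraries. The H2-Eb1 reads were not whole numbers in any of the 3, while they were whole in the other 10. H2-Ab1 reads were not whole in 2 of the 3 and whole elsewhere.

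H2-Eb2, the close paralog that lies next to H2-Eb1 in the mouse genome, was nearly silent outside the same 3 libraries. It had 82.0, 50.1 and 79.5 CPM in knock-in 4, 5 and 6 and at most 0.421 CPM in knock-in 1, 2, 3 and 7, against at most 0.24 CPM in wild type. In estimated reads these were 2057.94, 1314.81 and 2531.34 in knock-in 4, 5 and 6, 1 to 12 in knock-in 1, 2, 3 and 7 and 0 to 5 in wild type. Reads that fit both paralogs are divided by estimation, so the split between H2-Eb1 and H2-Eb2 is uncertain in knock-in 4, 5 and 6. The count filter removed H2-Eb2, which was therefore not tested. H2-Ea, the α chain partner of H2-Eb1, is inactive in some common laboratory strains. It had 7, 2 and 1 reads in knock-in 4, 5 and 6 and 0 in the other 10 libraries, where a count of 0 allows at most 3 reads, or 0.119 to 0.207 CPM of the library total, in counting error alone.

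**Figure D2:**
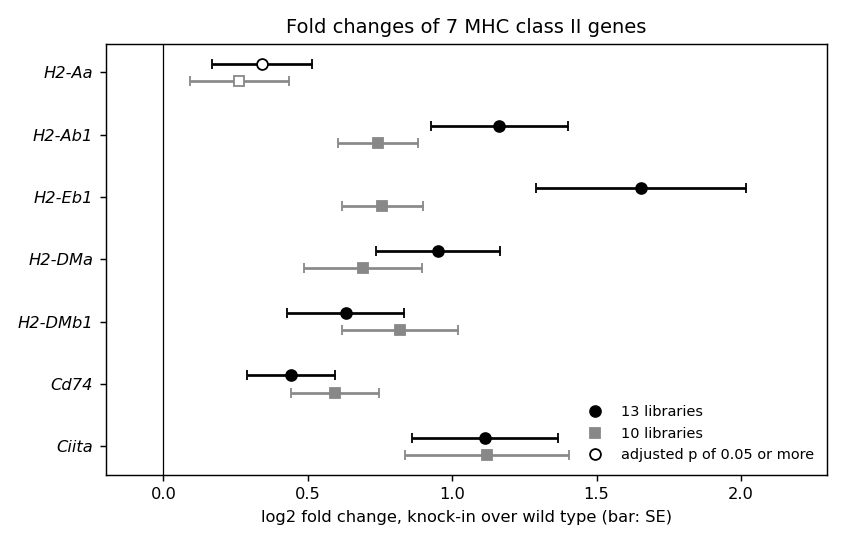
Log2 fold change of knock-in over wild type (horizontal axis, bars are SE) for the 7 class II genes in 13 libraries (circles) and in the 10 without knock-in 4, 5 and 6 (squares), with open symbols for an adjusted p of 0.05 or more. H2-Eb1 was at 1.65 with and 0.76 without those libraries, while Ciita was at 1.11 and 1.12.

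Cd74 encodes the invariant chain, which escorts class II dimers to endosomes. It had 298, 204, 271 and 374 CPM in knock-in 1, 2, 3 and 7 and 231, 200 and 231 CPM in knock-in 4, 5 and 6, against 159 to 233 CPM with a median of 187 in wild type. In CPM, knock-in 4, 5 and 6 lay inside the wild-type range for Cd74, while they lay above it for H2-Ab1 and H2-Eb1. This depended on the scale, since in TPM Cd74 was at 282, 287 and 315 in knock-in 4, 5 and 6, against at most 247 in wild type. For Cd74 the log2 fold change was 0.44 ± 0.15 (adjusted p = 0.0302) in 13 libraries and 0.59 ± 0.15 (adjusted p = 0.00617) in 10. In 13 libraries the call was lost without knock-in 1 (adjusted p = 0.053) and without knock-in 7 (adjusted p = 0.0531).

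H2-DMa and H2-DMb1 encode the α chain and a β chain of H2-M, the editor that releases the invariant chain fragment and selects peptides. H2-DMa had 12.4, 9.19, 9.44 and 15.6 CPM in knock-in 1, 2, 3 and 7 and 19.8, 15.2 and 16.3 CPM in knock-in 4, 5 and 6, against 4.25 to 9.64 CPM with a median of 7.43 in wild type. Only knock-in 2 and 3 overlapped wild type, both with wild type 1 alone. The fold change of H2-DMa was, in log2, 0.95 ± 0.22 (adjusted p = 0.00316) in 13 libraries and 0.69 ± 0.21 (adjusted p = 0.0143) in 10, and in 10 libraries the call was lost without knock-in 7 (adjusted p = 0.0807). In a mouse annotation of the older build GRCm38, exons of H2-DMa overlap 360 bases of Brd2, a chromatin reader gene on the opposite strand. Brd2 had 173 to 258 CPM in knock-in 4, 5 and 6 and 122 to 140 CPM in knock-in 1, 2, 3 and 7, against 117 to 135 CPM in wild type. The library kit keeps strand, but the strand setting of the counting is not given in the sources used here, so reads of the overlap may be shared.

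H2-DMb1 had 12.8, 7.92, 11.7 and 19.3 CPM in knock-in 1, 2, 3 and 7 and 10.6, 8.0 and 9.58 CPM in knock-in 4, 5 and 6, against 6.06 to 9.74 CPM with a median of 7.13 in wild type. Knock-in 7 was far above the rest, and knock-in 2, 5 and 6 lay below wild type 1. The fold change of H2-DMb1 was, in log2, 0.63 ± 0.20 (adjusted p = 0.0217) in 13 libraries and 0.82 ± 0.20 (adjusted p = 0.00504) in 10. H2-DMb2, a near-identical β chain gene, shares reads with H2-DMb1, and the reads of both were not whole in any of the 13 libraries. H2-DMb2 was at 1.69 ± 0.49 CPM in knock-in and 1.18 ± 0.64 CPM in wild type (SD, n = 7 and 6), a log2 difference of 0.51 ± 0.34 by SE (adjusted p = 0.225).

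Ciita had 6.93, 2.53, 7.01 and 8.87 CPM in knock-in 1, 2, 3 and 7 and 6.85, 5.18 and 6.75 CPM in knock-in 4, 5 and 6, against 1.99 to 3.84 CPM with a median of 2.87 in wild type. Knock-in 2 lay within the wild-type range and the other 6 knock-in libraries above it. The log2 fold change was 1.11 ± 0.25 (adjusted p = 0.00328) in 13 libraries and 1.12 ± 0.28 (adjusted p = 0.00597) in 10. Ciita rested on 46 to 253 reads in knock-in libraries and 31 to 80 reads in wild type, the fewest of the 7. Its exons overlap 329 bases of Dexi on the opposite strand in the older annotation, and Dexi was lower in the knock-in libraries, with a log2 fold change of -0.29 (adjusted p = 0.0268) in 13 libraries that was -0.04 (adjusted p = 0.757) with library totals.

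Levels of the 7 genes were compared with each other in TPM, which correct for length. Cd74 stood first at 340 ± 86.1 TPM in knock-in and 189 ± 34.4 TPM in wild type (SD, n = 7 and 6). H2-Aa followed with 249 ± 61.2 TPM in knock-in and 144 ± 22.6 TPM in wild type, then H2-Ab1 with 201 ± 90.5 TPM in knock-in and 65.6 ± 12.2 TPM in wild type. H2-Eb1 had 185 ± 119 TPM in knock-in and 43.3 ± 8.34 TPM in wild type. The editor genes were much lower, H2-DMb1 at 14.9 ± 5.22 TPM in knock-in and 7.18 ± 1.57 TPM in wild type, and H2-DMa at 13.6 ± 4.01 TPM in knock-in and 5.24 ± 1.56 TPM in wild type. Ciita was lowest, at 1.71 ± 0.56 TPM in knock-in and 0.594 ± 0.204 TPM in wild type. Cd74 and H2-Aa did not differ beyond their spread, since their ratio within a library ran from 0.968 to 1.68 in knock-in and from 0.907 to 1.62 in wild type. The same held for H2-DMb1 over H2-DMa, at 0.707 to 1.67 in knock-in and 0.99 to 2.28 in wild type. H2-Aa over H2-Ab1 was above 1 in every wild-type library and ran from 0.903 to 1.61 in knock-in. Knock-in 1, 2, 3 and 7 and 4 of the 6 wild-type libraries had this same order. In wild type 4 the editor genes changed places, and in wild type 5 H2-Aa stood above Cd74. In knock-in 4, 5 and 6 the order at the top differed, with H2-Eb1 first in knock-in 4, H2-Ab1 first in knock-in 6 and Cd74 below H2-Aa, H2-Ab1 and H2-Eb1 in both.

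Balance between the chains was compared through 6 ratios of TPM within each library, with exact two-sided permutation tests and Benjamini-Hochberg adjustment over the 6. H2-Aa to H2-Ab1, the α to β chain ratio of I-A, was 1.34 ± 0.30 in knock-in and 2.25 ± 0.54 in wild type (SD, n = 7 and 6). The log2 difference was -0.75, with no overlap between groups (exact p = 0.000583, the smallest that 13 libraries can give, adjusted p = 0.0035). Without knock-in 4, 5 and 6 the ratio was 1.58 ± 0.03 in knock-in against the same wild-type values, a log2 difference of -0.48 that did not pass adjustment (exact p = 0.0143, adjusted p = 0.0857). H2-DMa to H2-Aa was higher in knock-in, at 0.0549 ± 0.0117 against 0.0365 ± 0.0104 in wild type (exact p = 0.00699, adjusted p = 0.021), and in 10 libraries its adjusted p was 0.1. The other 4 ratios did not pass in either set.

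Some ratios separated knock-in 4, 5 and 6 from all other libraries. H2-Aa to H2-Ab1 was 0.903 to 1.16 in those 3 and 1.55 to 1.61 in knock-in 1, 2, 3 and 7, against 1.65 to 3.16 in wild type. H2-Eb1 to H2-Ab1 was 0.911 to 1.26 in the same 3 and 0.637 to 0.694 in knock-in 1, 2, 3 and 7, against 0.598 to 0.718 in wild type. In 10 libraries its mean was 0.662 ± 0.026 in knock-in and 0.660 ± 0.046 in wild type, a log2 difference of 0.01 (exact p = 0.919). Cd74 to H2-Ab1 was 0.878 to 1.59 in knock-in 4, 5 and 6 and 2.45 to 2.62 in the other 4 knock-in libraries, against 2.57 to 3.26 in wild type; over 13 libraries its log2 difference of -0.69 had an adjusted p of 0.0501. H2-DMb1 to H2-DMa was 0.707 to 0.793 in those 3 libraries and 1.16 to 1.67 in knock-in 1, 2, 3 and 7, against 0.99 to 2.28 in wild type. As the 3 libraries were set apart by a property of their values, they were not tested as a group.

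**Figure D3:**
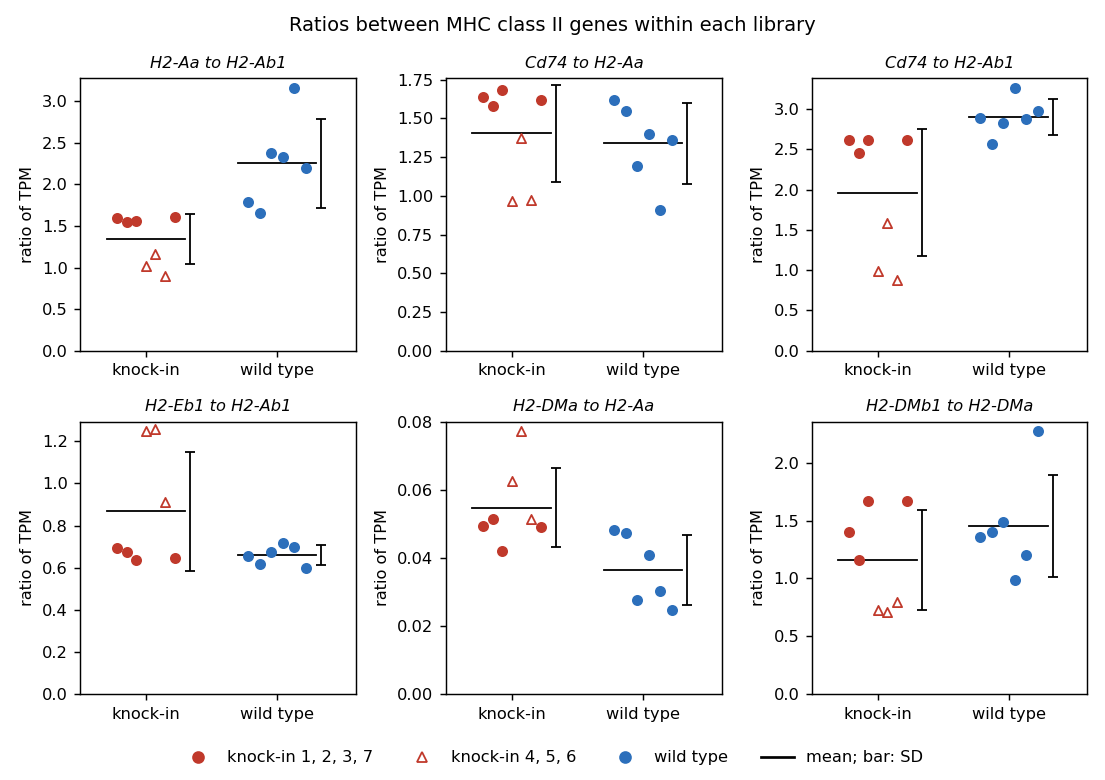
Ratio of TPM values (linear axis from 0) between pairs of class II genes within each of 7 knock-in libraries (left) and 6 wild-type libraries (right), with group mean and SD. Open triangles, knock-in 4, 5 and 6, stand below all other libraries for H2-Aa to H2-Ab1, Cd74 to H2-Ab1 and H2-DMb1 to H2-DMa, and above them for H2-Eb1 to H2-Ab1.

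The members were positively correlated with each other from library to library, but no background over other gene pairs was computed. As deviations from the means of 3 sets (wild type, knock-in 1, 2, 3 and 7, and knock-in 4, 5 and 6), H2-Ab1 and H2-Eb1 had the highest pairwise correlation of log2 CPM over the 13 libraries, r = 0.91, and H2-Aa and Ciita the lowest, r = 0.41. Every library contributes all its genes to these values, so they share its depth and scaling. Knock-in 7 was the highest, with a mean deviation of 0.44 over the members other than Ciita, and knock-in 2 the lowest at -0.42, with all 6 below their set's mean. Wild type 1 was the highest of its group, with a mean deviation of 0.30, and wild type 6 the lowest at -0.27. Of 13883 other genes, those most like this pattern were Zeb2 (r = 0.93), Zfp414 (0.93), Rab36 (0.92), H2-T23 (0.91), Mpp1 (0.91), Camsap3 (0.91), Il16 (0.90) and Fam171a2 (0.90), each over 13 libraries. For comparison, r was 0.84 for the leukocyte phosphatase Ptprc, 0.75 for Ciita, 0.69 for the macrophage receptor Csf1r and 0.18 for Irf1.

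Of 7 further class II genes listed, H2-Eb2 and H2-Ea among them, 5 were in the tables and 3 could be tested, of which 2 were higher in 13 libraries and 0 in 10, where 2 had an unadjusted p under 0.05 and 2 passed with library totals. The counts of this list and of every list below stand beside the shares of all tested genes. These were 23.6% higher and 21% lower in 13 libraries, and 22.3% higher and 21.3% lower in 10. No list was tested as a set. H2-Oa encodes the α chain of H2-O, a modulator of H2-M, and had a log2 fold change of 2.49 ± 0.61 (adjusted p = 0.00522) in 13 libraries. It had 3.11, 2.25 and 4.05 CPM in knock-in 4, 5 and 6 and 0.581 to 0.918 CPM in knock-in 1, 2, 3 and 7, against 0.0932 to 0.672 CPM in wild type. In 10 libraries the value was 1.10 ± 0.45 (adjusted p = 0.0626). H2-Ob, the β chain of H2-O, had 0.87 ± 0.26 (adjusted p = 0.0157) in 13 libraries and 0.70 ± 0.28 (adjusted p = 0.0586) in 10.

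The factors that Ciita works through did not move as a group. Of 7 promoter factors, 2 were higher and 1 lower in 13 libraries, and 1 higher and 2 lower in 10, with medians of -0.01 and -0.02. Rfx5, the DNA-binding subunit of the RFX complex, had a log2 fold change of 0.74 ± 0.25 (adjusted p = 0.0273) in 13 libraries and 0.28 ± 0.11 (adjusted p = 0.058) in 10. Rfxap, another RFX subunit, had -0.48 ± 0.14 (adjusted p = 0.013) in 13 and -0.29 ± 0.11 (adjusted p = 0.0424) in 10, but with library totals it was at -0.23 (adjusted p = 0.191) and -0.04 (adjusted p = 0.809). Nfya, a subunit of the CCAAT-binding NF-Y, had 0.48 ± 0.14 (adjusted p = 0.0131) in 13 and 0.53 ± 0.14 (adjusted p = 0.00896) in 10. Nfyc, another NF-Y subunit, went the other way, with -0.29 ± 0.15 (adjusted p = 0.126) in 13 and -0.52 ± 0.08 (adjusted p = 0.000278) in 10. With library totals Nfyc was at -0.05 (adjusted p = 0.812) in 13 and -0.28 (adjusted p = 0.0278) in 10. That scaling gave 3 of the 7 factors higher and 0 lower in 13 libraries, with a median of 0.23, and 3 higher and 1 lower in 10.

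Interferon-γ is the classical inducer of Ciita outside professional antigen-presenting cells. Ifng itself was at most 0.105 CPM in knock-in and 0.106 CPM in wild type and was not tested. Of 8 tested genes of its receptor and signalling axis, 3 were higher and 1 lower in 13 libraries, and 2 higher and 2 lower in 10. With library totals 5 were higher and 1 lower in 13 libraries, and 6 higher and 1 lower in 10. Ifngr2, a receptor chain, fell with a log2 fold change of -0.71 ± 0.13 (adjusted p = 0.000572) in 13 libraries. Irf2, a factor that binds interferon response elements, had 0.60 ± 0.12 (adjusted p = 0.00124), and the feedback inhibitor Socs1 0.73 ± 0.24 (adjusted p = 0.0234). In 10 libraries these were -0.53 (adjusted p = 0.000762), 0.40 (adjusted p = 0.00179) and 0.49 (adjusted p = 0.116).

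Of 16 GTPases and chemokines that interferon-γ induces, 2 were higher and 5 lower in 13 libraries, with a median of -0.22, and 3 higher and 2 lower in 10, with a median of 0.05. The median in 13 libraries changed sign with library totals, to 0.03, with 3 higher and 2 lower. Cxcl9, a T cell chemokine, was at 8.07 ± 2.58 CPM in knock-in and 17.4 ± 2.67 CPM in wild type (SD, n = 7 and 6), a log2 fold change of -1.11 (adjusted p = 0.000607). The GTPase Iigp1 was at 79.6 ± 31.0 CPM in knock-in and 170 ± 49.9 CPM in wild type, a log2 fold change of -1.10 (adjusted p = 0.00525). Cxcl10, a related chemokine, was higher at 1.35 ± 0.57 CPM in knock-in and 0.671 ± 0.212 CPM in wild type, with 0.98 (adjusted p = 0.0239). In 10 libraries the 3 values were -0.88, -0.72 and 1.24, all with an adjusted p under 0.05.

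Among genes that make and turn over class II cargo, 4 of 10 were higher in 13 libraries and 6 of 10 in 10, and no fall was called. Ctss encodes cathepsin S, which degrades the invariant chain, and was at 104 ± 47.2 CPM in knock-in and 40.7 ± 7.74 CPM in wild type (SD, n = 7 and 6), a log2 rise of 1.36 ± 0.24 by SE (adjusted p = 0.000538). Marchf1, a ubiquitin ligase that removes class II from the surface, had 0.85 ± 0.18 (adjusted p = 0.0024), and Lgmn, the endosomal protease legumain, 0.41 ± 0.12 (adjusted p = 0.0129). In 10 libraries these were 1.59, 0.90 and 0.44. Of 6 tested costimulatory molecules and their counterparts, 2 were higher and 1 lower in 13 libraries and 3 higher and 0 lower in 10. Cd80, a ligand of CD28, had 0.97 ± 0.25 (adjusted p = 0.00693), and the adhesion molecule Icam1 0.56 ± 0.19 (adjusted p = 0.0298). Cd274, the inhibitory ligand PD-L1, had -0.49 ± 0.19 (adjusted p = 0.0449) in 13 libraries and -0.33 (adjusted p = 0.178) in 10, and with library totals -0.26 (adjusted p = 0.303) in 13. That scaling gave 3 higher and 0 lower in 13 libraries for this list.

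**Figure D4:**
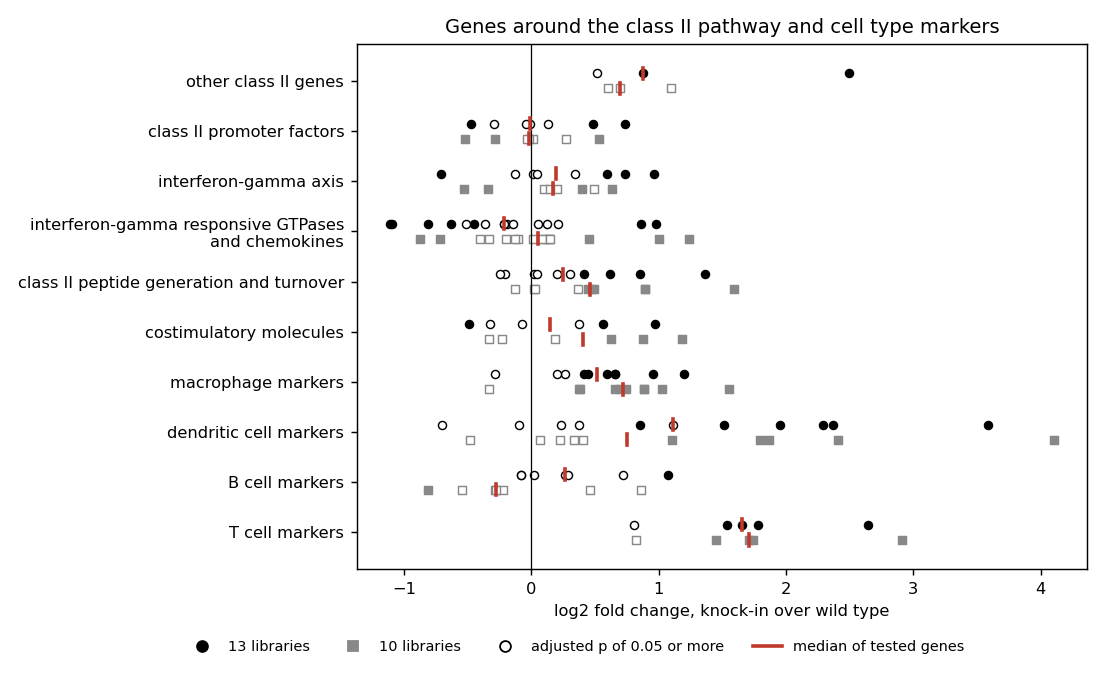
Log2 fold change of knock-in over wild type for each tested gene of 6 class II pathway lists and 4 cell type marker lists, in 13 libraries (circles) and 10 libraries (squares). Filled symbols have an adjusted p under 0.05 and red bars are medians, which were 0.25 in 13 and 0.46 in 10 libraries for peptide generation and turnover and 0.52 and 0.72 for macrophage markers.

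Markers of the cell types that can carry class II differed in how they moved. Of 10 macrophage markers, 7 were higher in 13 libraries and 9 in 10, with none lower, among them the Fc receptor Fcgr1 (log2 fold change 0.96, adjusted p = 0.000842, in 13 libraries) and the complement gene C1qb (0.66, adjusted p = 0.00452). Summed macrophage markers were 710 to 1040 CPM in knock-in 1, 2, 3 and 7 and 543 to 616 CPM in knock-in 4, 5 and 6, against 471 to 592 CPM in wild type. The 7 class II genes summed to 495 to 881 CPM in knock-in 1, 2, 3 and 7 and 682 to 1070 CPM in knock-in 4, 5 and 6, against 378 to 534 CPM in wild type. Class II per macrophage marker was thus 0.802 ± 0.142 in knock-in 1, 2, 3 and 7 and 1.56 ± 0.27 in knock-in 4, 5 and 6, against 0.832 ± 0.095 in wild type (SD, n = 4, 3 and 6). The first of these ranges, 0.591 to 0.889, overlapped the wild-type range of 0.663 to 0.931. The range of knock-in 4, 5 and 6, 1.25 to 1.74, lay above both. In those 3 libraries H2-Eb1 gave 389, 214 and 318 CPM of the class II sums and H2-Ab1 213, 116 and 240 CPM. The split of H2-Eb1 from H2-Eb2 is uncertain there. Cd74 in the same libraries lay inside its wild-type range in CPM, at 231, 200 and 231 against 159 to 233. The part of macrophage number in the class II result was not tested.

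**Figure D5:**
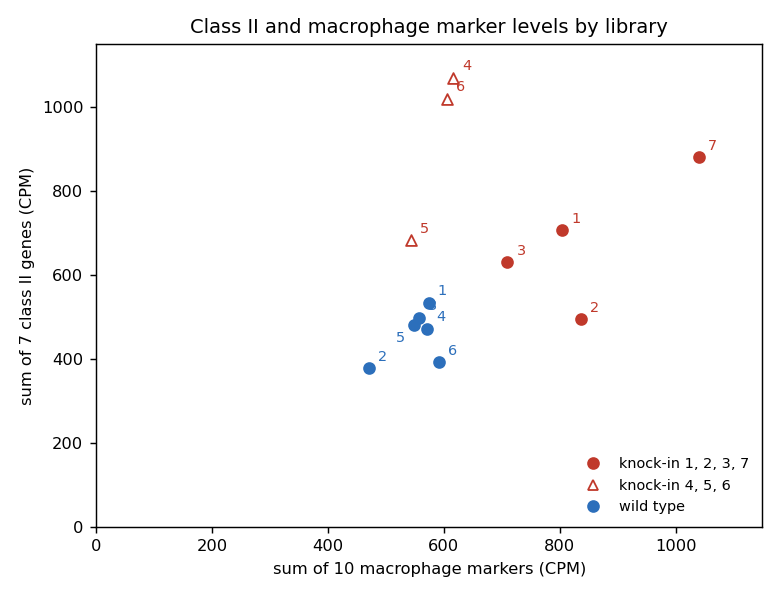
Sum of the 7 class II genes (vertical axis, CPM) against the sum of 10 macrophage markers (horizontal axis, CPM) in each library, with the replicate number beside each point. On the class II axis every knock-in library except knock-in 2 (495 CPM) is higher than every wild-type library (at most 534 CPM). On the macrophage axis every knock-in library except knock-in 5 (543 CPM) is higher than every wild-type library (at most 592 CPM). Knock-in 4, 5 and 6 have macrophage sums of 543 to 616 CPM.

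Dendritic cell markers were higher for 6 of 11 tested in 13 libraries and 5 of 10 in 10, with none lower. Their sums were 72.3 to 139 CPM in knock-in without knock-in 6, which was at 298 CPM, and 45.0 to 80.6 CPM in wild type. Much of these sums is Fscn1, at 75.2 ± 82.2 CPM in knock-in, with a highest value of 261, and 34.8 ± 9.81 CPM in wild type. In 13 libraries 9 of the 11 had a log2 fold change above 0. Siglech (-0.70, adjusted p = 0.0584) and Zbtb46 (-0.10, adjusted p = 0.639) were below it. Flt3, the receptor dendritic cells depend on, was at 1.72 ± 0.35 CPM in knock-in and 0.346 ± 0.274 CPM in wild type (SD, n = 7 and 6; log2 fold change 2.29, adjusted p = 0.000793). The integrin gene Itgax was at 11.1 ± 14.8 CPM in knock-in and 0.909 ± 0.489 CPM in wild type (3.58, adjusted p = 0.00155). Of 7 tested B cell markers, 1 was higher in 13 libraries, Blk (1.08, adjusted p = 0.0376), and in 10 libraries 0 were higher and 1, Cd79a, was lower. Cd22 was also above wild type at an unadjusted p of 0.0339 in 10. Cd22 had 0.72 (adjusted p = 0.0884) in 13. With library totals 2 B cell markers were higher and 0 lower in 13 libraries, and 1 was higher and 0 lower in 10. There Cd79a had -0.58 (adjusted p = 0.154) in 10. B cell marker sums were 6.95 to 16.3 CPM in knock-in and 7.07 to 13.1 CPM in wild type. Of 5 tested T cell markers 4 were higher in both sets, among them Il7r (2.64, adjusted p = 0.000216) and Cd4 (1.78, adjusted p = 0.000309), with sums of 9.41 to 22.7 CPM in knock-in and 2.25 to 5.95 CPM in wild type. Cd5 was at 0 in some libraries.

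Pan-leukocyte markers were higher for 5 of 7 in 13 libraries and 7 of 7 in 10, led by Ptprc (log2 fold change 1.34, adjusted p = 0.000161) and Laptm5 (1.03, adjusted p = 0.000181), with sums of 301 to 596 CPM in knock-in and 151 to 220 CPM in wild type. Monocyte markers were higher for 2 and lower for 1 of 5 in 13 libraries and higher for 3 in 10, with Ccr2 at 1.02 (adjusted p = 0.00161) and sums of 171 to 6030 CPM in knock-in and 87.6 to 146 CPM in wild type. With library totals 3 monocyte markers were higher and 0 lower in 13 libraries. Fn1, which is in that list and which fibroblasts and epithelia also make, was at 1460 ± 2200 CPM in knock-in and 82.0 ± 17.7 CPM in wild type (SD, n = 7 and 6). Resident macrophage markers were higher for 1 and lower for 3 of 6 in 13 libraries, and higher for 1 and lower for 2 in 10. In 13 libraries Timd4 was at -1.03 (adjusted p = 0.000218) and Cd209f at -1.0 (adjusted p = 0.00748). Lyve1, the 1 that was higher, had 0.64 (adjusted p = 0.0361) in 13 and 1.00 (adjusted p = 6.94e-05) in 10. With library totals 1 was higher and 2 lower in 13 libraries, and 2 higher and 1 lower in 10. There Cd209f did not pass in 10 (-0.46, adjusted p = 0.171). Resident macrophage marker sums were 76.6 to 165 CPM in knock-in and 82.7 to 116 CPM in wild type. Granulocyte and mast cell markers were higher for 1, Csf3r, and lower for 2 of 6 in 13 libraries, the mast cell protease genes Mcpt4 and Cma1, and higher for 1 and lower for 1 in 10, with sums of 13.4 to 39.1 CPM in knock-in and 11.9 to 40.4 CPM in wild type. With library totals 1 of these was higher and 1 lower in 13 libraries, where Cma1 had -0.55 (adjusted p = 0.0694). Natural killer cell markers summed to at most 2.47 CPM in knock-in and 2.5 CPM in wild type, and the 1 that could be tested, Gzma, had 0.26 (adjusted p = 0.703).

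Of the other tissue cells, 0 of 7 endothelial markers passed in 13 libraries, also at an unadjusted p under 0.05, and 1 was higher with library totals. With TMM in 13 libraries Tek had -0.30 (adjusted p = 0.114) and Emcn 0.22 (adjusted p = 0.353). With library totals they had -0.05 (adjusted p = 0.824) and 0.48 (adjusted p = 0.0489). In 10 libraries with TMM 2 markers were higher. Endothelial sums were 773 to 1360 CPM in knock-in and 1040 to 1430 CPM in wild type. Fibroblast markers were higher for 2 of 7 in 13 libraries, Col1a2 (2.53, adjusted p = 0.00221) and Col1a1 (2.80, adjusted p = 0.00307), and for 5 in 10, with sums of 5280 to 8310 CPM in knock-in and 4160 to 5800 CPM in wild type. All 4 tested epithelial markers were higher in 13 libraries, with Krt18 at 5.00 (adjusted p = 0.00628) and Krt8 at 6.79 (adjusted p = 0.00736), and none in 10, where 1 had an unadjusted p under 0.05. Cardiomyocyte markers were lower for 8 of 8 in 13 libraries and 7 of 8 in 10, led by Tnni3 (-1.62, adjusted p = 2.57e-05) and Myl2 (-1.25, adjusted p = 0.000211). The parts of these other cells in the class II values were not tested.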

How the data were processed

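Polyadenylated RNA was enriched from total RNA and made into stranded Illumina libraries, per the labels' protocols. DRAGEN and build GRCm39 (mm39) are listed in the submitters' processing notes. No version, annotation or strand setting of the counting is given in the sources used here. The authors deposited, for each library, estimated counts of reads per gene, TPM and effective lengths, per the file headers. Counts were rounded, filtered with filterByExpr, scaled by TMM and compared with edgeR 4.0.16 (R 4.3.3), by the robust quasi-likelihood F test with no covariate. P-values were adjusted by Benjamini-Hochberg over all genes tested, and calls have an adjusted p under 0.05. CPM in the text uses the TMM-scaled library sizes of the 13-library fit, and SE was taken as the absolute log2 fold change over the root of F. The script was tested on simulated data. TPM served to compare genes and for the ratios.

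A library was set apart where its share of values that were not whole (tolerance 1e-09) exceeded the median share more than 2 times. Knock-in 4, 5 and 6 met this. The members, the 6 pathway lists, the 13 marker lists and the rules were chosen with earlier results of these data known. All 7 members were named, with up to 3 genes of each pathway list and 2 of each marker list by smallest p in 13 libraries. Values of some listed genes are not reported here. Other genes beside these are named where a member's value, or the sum or balance of a list, turns on them. Likeness used log2 CPM (prior count 2) over genes with a mean CPM of at least 1. Exon overlaps came from GENCODE of GRCm38, an older build than that of the counts. No precision beyond the spread of libraries was computed for the counts. The closest pair of replicates, wild type 3 and 6, differed by more than sampling noise (chi-square of 7.52 per degree of freedom). Alternatives were DESeq2 1.42.0 and its size factors, limma 3.58.1 on log2(TPM + 1) and log2(TPM + 0.1), limma-voom, library totals, other filters, an effective length offset, a replicate block, an indicator for knock-in 4, 5 and 6, a stricter threshold and leaving out each library.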

Additional observations from a re-analysis of the deposited data

Results flagged for a closer look

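Of 48 groups of 4 to 7 libraries tested for a value far from the others, 5 held such a value, and chance alone gives about 1 in 20. H2-DMb1 in knock-in 7 was at 19.3 CPM, while knock-in 1 to 6 ranged between 7.92 and 12.8 CPM. H2-DMb1 in wild type 1 reached 9.74 CPM, while wild type 2 to 6 ranged between 6.06 and 7.2 CPM. Among knock-in 1, 2, 3 and 7, the ratio of Cd74 to H2-Ab1 was 2.45 in knock-in 2 and 2.61 to 2.62 in the rest. In the same 4 libraries class II per macrophage marker was 0.591 in knock-in 2 and 0.848 to 0.889 in the rest. The macrophage marker sum of wild type 2 was 471 CPM, against 549 to 592 CPM in the other 5 wild-type libraries.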

How the results depend on the processing

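All 322 values of the 7 genes under the alternatives were above 0, and 307 were on the same side of the threshold as the reported value. H2-Aa passed with library totals and on both TPM scales (adjusted p = 0.00179 and 0.0015 in 13 libraries, 0.00323 and 0.00309 in 10). At an adjusted p under 0.01, 3682 genes and 4 of the 7 were called in 13 libraries in place of 6502 and 6. Leaving out any of the 7 knock-in libraries brought the Cd74 to H2-Ab1 ratio over 13 libraries past the threshold (adjusted p = 0.013 to 0.026). In 10 libraries H2-Aa to H2-Ab1 passed without wild type 1 or 2, Cd74 to H2-Aa without wild type 1 and Cd74 to H2-Ab1 without wild type 2 (adjusted p = 0.0476 each). The cause was not tested. Replicate numbers in the titles did not pair the libraries: deviations of same-numbered libraries had correlations of -0.11 to 0.08 in 13 and 0.24, 0.13 and -0.04 in 10, and 0 of 12 and 1 of 6 libraries correlated best with their own number. A replicate block gave 4811 calls with 6 of the 7 genes in 13 libraries, and 2785 calls with 3 of the 7 genes in 10 in place of 6340 and 6, where H2-DMa (adjusted p = 0.0722), H2-DMb1 (0.11) and Ciita (0.277) did not pass. Ciita and the editor genes have the fewest reads of the 7. In 10 libraries only 6 have a partner with the same replicate number, and wild type 4 to 6 and knock-in 7 have none. The parts of low reads and of these missing partners in the lost calls were not tested.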
